A study of Locusta migratoria with 12 samples.

Results

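Small RNA from the fat body of adult female migratory locusts (Locusta migratoria) was compared between day 6 and day 4 after eclosion, the last moult, from which the adult emerges. The 6 libraries of these ages were chosen by age from the 12 of the series, 3 for each age, and they are called replicates 1 to 3. The labels name no treatment, strain or mating state and do not say whether libraries came from separate animals or from pools, so the p-values rest on a spread between libraries that may be technical. The deposited table gives a raw count for each mature miRNA name. Rows of different arthropod species that counted the same reads were joined into 63 miRNAs, and 62 of them had enough counts to be tested.

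The fat body is the insect organ that stores nutrients and makes the yolk protein precursors. After eclosion, juvenile hormone acts on it in female locusts, and the organ grows and turns to yolk protein synthesis. miRNAs are short RNAs that pair with messenger RNAs, mostly through their seed near the 5′ end, and lower their translation or stability. The comparison asks whether the miRNA content of this organ still moved between the 2 later ages.

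At an adjusted p under 0.05, 0 of the 62 miRNAs tested (0%) were higher and 0 (0%) were lower at day 6, in edgeR's quasi-likelihood test with Benjamini-Hochberg adjustment. At an unadjusted p under 0.05 there were 4 with a higher and 7 with a lower fitted level. DESeq2 and limma-voom also called 0, with 12 and 11 miRNAs at an unadjusted p under 0.05. The smallest adjusted p in edgeR was 0.164. A p that misses the threshold does not show that a level was held, so each miRNA was also read by the 95% interval of its log2 change. That interval lay wholly within 2-fold (-1 to 1 on the log2 scale) for 30 of the 62 miRNAs (48.4%), which are called level below. For the other 32 miRNAs the interval reached past 2-fold, so neither a change nor a steady level was shown. The median log2 change of all 62 was 0.04, and it was -0.14 when libraries were scaled by their total counts alone.

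The libraries of day 6 were less alike than those of day 4. Library totals ran from 602454 counts (day 6 replicate 2) to 2090165 (day 4 replicate 1). Across miRNAs, log2 levels correlated at 0.986 to 0.994 between day 4 libraries and at 0.954 to 0.969 between day 6 libraries, as a description of libraries that share no reads but differ in depth. Day 6 replicate 1 correlated at 0.988 to 0.995 with the day 4 libraries, above its correlations with the other day 6 libraries. Day 6 replicates 2 and 3 correlated at 0.948 to 0.985 and at 0.954 to 0.965 with the day 4 libraries. For some of the values below that rest on 1 day 6 library, the value without that library is given too.

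Of the 10 most abundant miRNAs, 9 were level. miR-8-3p, a miRNA that tunes insulin signalling and body growth through the fat body in flies, was the most abundant. It stood at 518928, 475888 and 530002 normalised CPM (the share of a library's counts on the CPM scale, adjusted by TMM factors) in day 4 replicates 1, 2 and 3, and at 681875, 599826 and 648342 at day 6. The day 6 libraries all lay above the day 4 libraries. The log2 change was 0.34 (SE 0.07, 3 libraries per age, 95% interval 0.17 to 0.51, edgeR adjusted p = 0.164), so its interval excluded 0 and also any change as large as 2-fold. Because miR-8-3p alone takes most of a library, its scaling matters. Its share of all counts was 54.0%, 52.1% and 56.2% at day 4 and 60.4%, 60.8% and 59.8% at day 6, and with total counts as the scale its log2 change was 0.16. The other arm of the same hairpin, miR-8-5p, stood at 25690.0 ± 1989 CPM (mean ± SD, n = 3) at day 4 and 24095 ± 2044 at day 6, with overlapping libraries and an interval of -0.35 to 0.17.

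miR-276-3p, which has been tied to synchronous egg hatching in locusts, was next in abundance. Its levels were 112115, 117838 and 92469.9 CPM at day 4 and 96839, 81208 and 80933 at day 6. Those libraries overlapped, with a log2 change of -0.32 (SE 0.12, interval -0.61 to -0.02) and an edgeR adjusted p of 0.246. With total counts as the scale the log2 change was -0.50. bantam-3p, which promotes growth and blocks cell death in flies, stood at 58535, 55237 and 56118 CPM at day 4, a narrow band. At day 6 it stood at 64289, 51396 and 38114 CPM, on both sides of that band, and its interval was -0.58 to 0.30.

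miR-184-3p, needed for egg production in flies, had one of the narrowest intervals. Its levels were 33216, 33644 and 32386 CPM at day 4 and 33359.7, 30580.0 and 28725 at day 6 (interval -0.32 to 0.12). miR-275-3p, needed for blood digestion and egg development in mosquitoes, stood at 20681 ± 1171 CPM at day 4 and 20804 ± 2132 at day 6. Its log2 change was 0.01 (SE 0.11, interval -0.26 to 0.28), the closest to 0 of the 62. miR-9c-5p stood at 25407 ± 1318 and 28700.5 ± 1408 CPM, with the day 6 libraries above those of day 4 and an interval of -0.04 to 0.39. As shares of all counts its libraries overlapped, at 2.79%, 2.65% and 2.67% at day 4 and 2.67%, 2.90% and 2.52% at day 6. With total counts as the scale its log2 change was -0.003. miR-8-3p, miR-184-3p, miR-9c-5p, miR-8-5p and miR-275-3p were the 5 miRNAs with the narrowest intervals.

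miR-14-3p, which restrains cell death and fat storage in flies, was the only one of the 10 most abundant miRNAs that was not level. It stood at 27453, 22989 and 28738 CPM at day 4 and at 23428, 20104 and 73560.3 CPM at day 6. Day 6 replicate 3 thus held far more than any other library, and day 6 replicates 1 and 2 were within or just under the day 4 range. The log2 change was 0.56 (interval -0.61 to 1.74) with that library and -0.30 without it, when edgeR gave an adjusted p of 0.224. The remaining abundant miRNAs, miR-306 and miR-2a-3p, had intervals of -0.30 to 0.65 and -0.13 to 0.62.

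**Figure D1:**
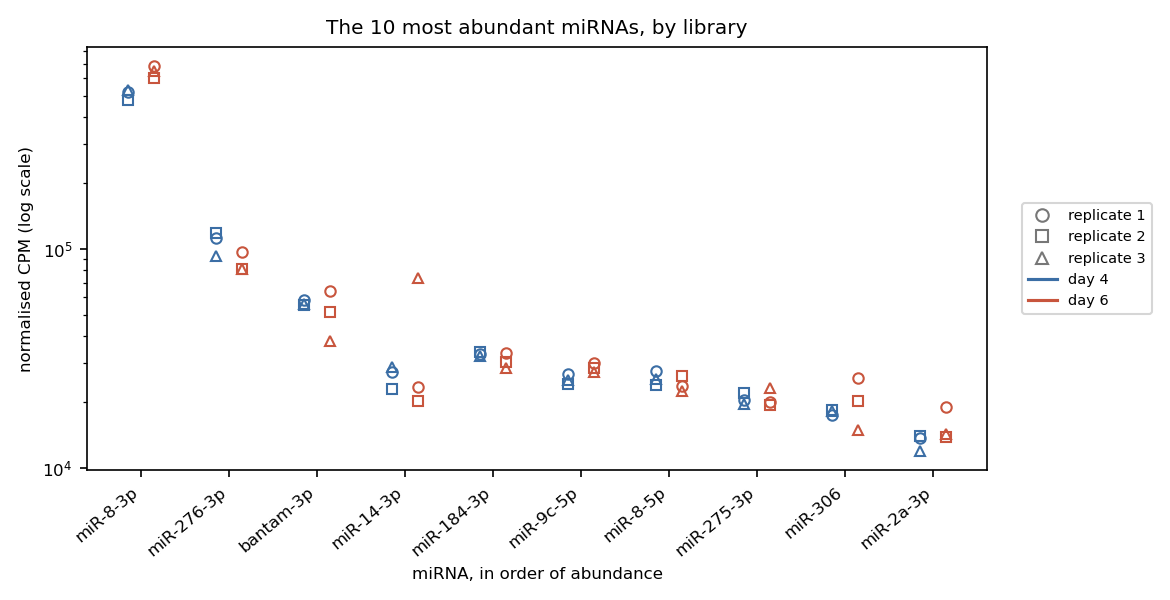
Normalised CPM (log scale) of the 10 most abundant miRNAs in each day 4 and day 6 library, with 1 symbol for each replicate. The day 6 symbols of miR-8-3p lie above those of day 4, and day 6 replicate 3 of miR-14-3p, at 73560.3 CPM, stands alone.

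The timing miRNAs and those linked to juvenile hormone were level where they were abundant. The same held for nearly all abundant miRNAs, whose intervals were narrower, so nothing particular to these lists is read from it. Of all 62 miRNAs tested, 30 (48.4%) were level. let-7, a timing miRNA of development, shares a transcript with miR-100 and miR-125 in many insects, and 3 of 3 members of this complex were level. let-7-5p stood at 8484, 8579 and 9984 CPM at day 4 and at 8704, 8689 and 10408 at day 6. The libraries of the 2 ages overlapped almost fully, with an interval of -0.28 to 0.36. The intervals of miR-100-5p and miR-125-5p were -0.30 to 0.49 and -0.48 to 0.26. The median log2 change of the complex was 0.04, the same as that of all miRNAs.

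miR-278-3p, which acts on energy homeostasis in flies and was reported with let-7 to target Kr-h1, the early juvenile hormone response gene, in locusts, was level too. It stood at 4299.8, 3944 and 2989 CPM at day 4 and at 4179, 2643 and 3809 at day 6 (interval -0.64 to 0.48). Day 4 replicate 3 and day 6 replicate 2 were its low libraries. The list drawn up for Kr-h1 also holds the miR-2 family, miR-13 and both arms of miR-71. Whether miR-71 acts on Kr-h1 was not checked here. In this list 5 of 7 members were level and 0 were called. The median log2 change of the list was 0.14, or -0.07 without day 6 replicate 3. Of the miR-2 cluster, 3 of 5 members were level, with a median of 0.25, and miR-2a-3p had the lowest p (edgeR adjusted p = 0.447). The 2 not level, miR-71-3p and miR-13b-3p, had intervals of -0.59 to 1.13 and -0.49 to 1.24. The paralogues of these families can share reads, so their split is uncertain.

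Both members of the miR-275 cluster were level, with a median log2 change of 0.02, and miR-305-5p stood at 9242 ± 858 CPM at day 4 and 9473 ± 980.2 at day 6. The miR-9 list, which joins the miR-9 forms with miR-79 and miR-306, had 4 of 6 members level and a median of 0.13. Its members not level were both arms of miR-9a. The list was set by name, and whether its members lie in 1 cluster in the locust was not checked. The mosquito reproduction list had 3 of 4 measured members level and a median of 0.17. Metabolism and growth lists, which share forms of miR-8 and miR-14, each had 3 of 6 members level, with medians of 0.28 and -0.12. Without day 6 replicate 1 these medians were 0.11 and -0.21. In all lists 0 members were called, as among all miRNAs tested. The lists were chosen with earlier results of these data known.

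**Figure D2:**
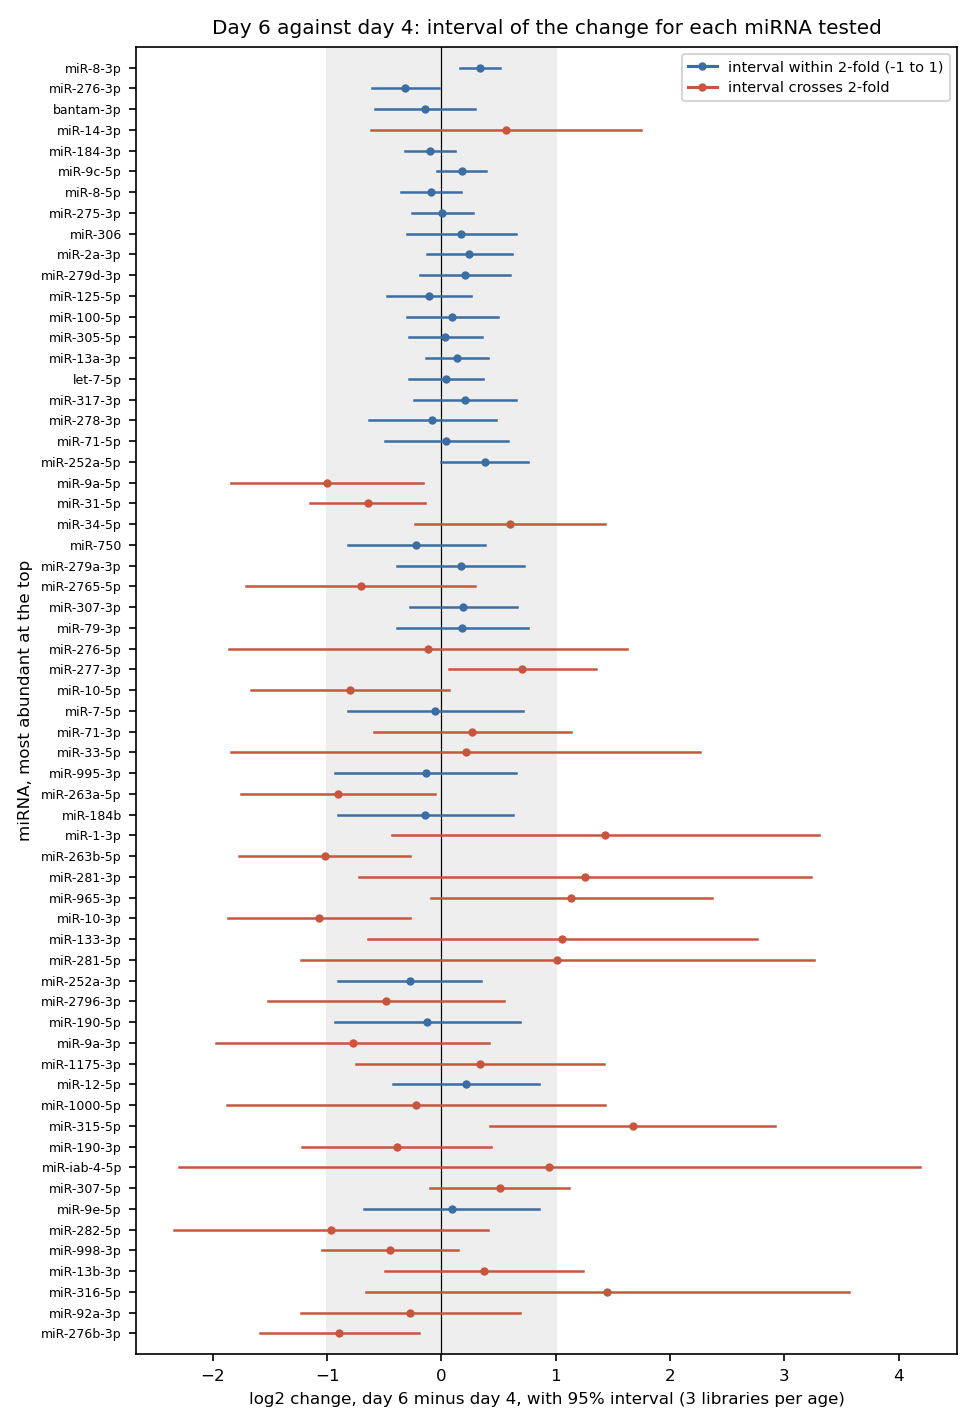
Log2 change from day 4 to day 6 (x axis) with its 95% interval for the 62 miRNAs tested, the most abundant at the top (y axis). Intervals of 30 miRNAs stay within the shaded band of -1 to 1, among them all of the 10 most abundant except miR-14-3p, and intervals widen towards the less abundant miRNAs.

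Among miRNAs with at least 10 CPM, the 5 lowest fitted log2 changes were those of miR-10-3p, miR-263b-5p, miR-9a-5p, miR-282-5p and miR-263a-5p, and 0 of them passed the test. miR-10-3p, from the Hox gene cluster, stood at 139.8, 176 and 132 CPM at day 4 and at 90.5, 68.8 and 52.9 at day 6. The ages did not overlap, and the log2 change was -1.07 (SE 0.33, interval -1.87 to -0.27, edgeR adjusted p = 0.242). Its other arm, miR-10-5p, also had every day 6 library below day 4, at 531, 518 and 247 CPM against 700.4, 908 and 646 CPM. The log2 change of miR-10-5p was -0.80 (interval -1.66 to 0.06), or -0.54 without day 6 replicate 3. The third member of the Hox list, miR-iab-4-5p, is described with the spread, and the list had 0 of 3 members level and a median of -0.80.

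miR-263a-5p and miR-263b-5p protect sensory organs from cell death in flies, and miR-263 has been tied to chitin synthesis in locusts. miR-263b-5p stood at 173, 238 and 163 CPM at day 4 and at 89.1, 83.5 and 109.7 at day 6, again without overlap. Its log2 change was -1.02 (SE 0.31, interval -1.77 to -0.27, edgeR adjusted p = 0.242), and it ran from -1.16 to -0.84 over the fits that left out 1 library each. miR-263a-5p stood at 379, 576 and 366 CPM at day 4 and at 260.1, 157 and 287 at day 6, with a log2 change of -0.90 (interval -1.75 to -0.06). These sister miRNAs were the members of the chitin and moulting list that were not level, while both forms of miR-184 were (2 of 4 level, median -0.52). The minor form, miR-184b, was level in only 1 of the 6 fits that left out 1 library.

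miR-9a-5p, which limits sensory organ precursors in flies, stood at 4945, 5224 and 3445 CPM at day 4 and at 3482, 1767 and 1548 at day 6. Day 6 replicate 1 lay within the day 4 range and the other day 6 libraries below it. Its log2 change was -1.0 (SE 0.35, edgeR adjusted p = 0.246), and -1.46 without day 6 replicate 1 (adjusted p = 0.0625). Without day 6 replicate 2 or 3 it was -0.78 or -0.82 (edgeR adjusted p = 0.480 and 0.224). miR-282-5p, of low abundance, had a log2 change of -0.97 (interval -2.34 to 0.40) and -1.92 without day 6 replicate 1 (adjusted p = 0.0625). Without day 6 replicate 2 or 3 it was -0.75 or -0.57 (edgeR adjusted p = 0.608 and 0.443). miR-282-5p held 42, 7 and 7 counts in the day 6 libraries, so counting error is large there. miR-31-5p, chosen for its values, stood at 4149, 4645 and 3563 CPM at day 4 and at 3318, 2237 and 2346 at day 6. It had no overlap, a log2 change of -0.64 and an interval of -1.15 to -0.14 (edgeR adjusted p = 0.242).

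On the other side, miR-315-5p, an activator of Wingless signalling in fly cells, had the highest fitted change. It stood at 23.4, 9.25 and 23.2 CPM at day 4 and at 30.8, 68.8 and 81.3 at day 6. Each day 6 library lay above each day 4 library, with a log2 change of 1.67 (SE 0.52, interval 0.43 to 2.92, edgeR adjusted p = 0.242) and values of 1.37 to 1.99 with 1 library left out. miR-277-3p, which controls the breakdown of branched-chain amino acids in flies, stood at 519, 409.6 and 523 CPM at day 4 and at 607, 798 and 967 at day 6. In these CPM it too had no overlap, with a log2 change of 0.71 (SE 0.27, interval 0.06 to 1.35, edgeR adjusted p = 0.246). As a share of all counts the ages overlapped, at 0.0537% in day 6 replicate 1 against 0.0540% and 0.0554% in day 4 replicates 1 and 3. With total counts as the scale the log2 change of miR-277-3p was 0.54. In its cluster with miR-34 and miR-317, 1 of 3 members was level (miR-317-3p) and the median was 0.60, or 0.09 without day 6 replicate 3. miR-965-3p stood at 87.4, 96.7 and 80.8 CPM at day 4 and at 114, 118 and 349.9 at day 6. Its log2 change of 1.14 (interval -0.10 to 2.37) was 0.38 without day 6 replicate 3.

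Over all 62 miRNAs in normalised CPM, 8 had every day 6 library above every day 4 library. Another 8 had every one below, which made 25.8% in either direction. At an adjusted p under 0.05, 0 of these 16 passed in the edgeR fit of age alone on the 6 libraries. The count above depended on the scaling. As shares of all counts, miR-9c-5p, miR-13a-3p, miR-252a-5p, miR-277-3p, miR-965-3p and miR-307-5p overlapped between the ages. On that scale miR-8-3p and miR-315-5p stayed above, and the 8 below stayed below.

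The day 6 libraries spread widely for many miRNAs, though among the 10 most abundant only miR-14-3p reached a 2-fold range. Of the 61 miRNAs with a mean of at least 10 CPM, 24 (39.3%) had a range of 2-fold or more within day 6, taken as the highest over the lowest library after adding 0.5 CPM. The same limit was passed by 7 within day 4, and all 7 were among the 24. The median range of all 62 was 1.69-fold at day 6 and 1.28-fold at day 4, and the SD of the log2 level was larger at day 6 for 49 of them. These counts are descriptions, since 3 libraries per age cannot carry a test of spread. Of the 24 wide miRNAs, only miR-995-3p was level, at a range of 2.02-fold. The interval that defines level rests in part on the same day 6 spread, so a wide miRNA could seldom be level.

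**Figure D3:**
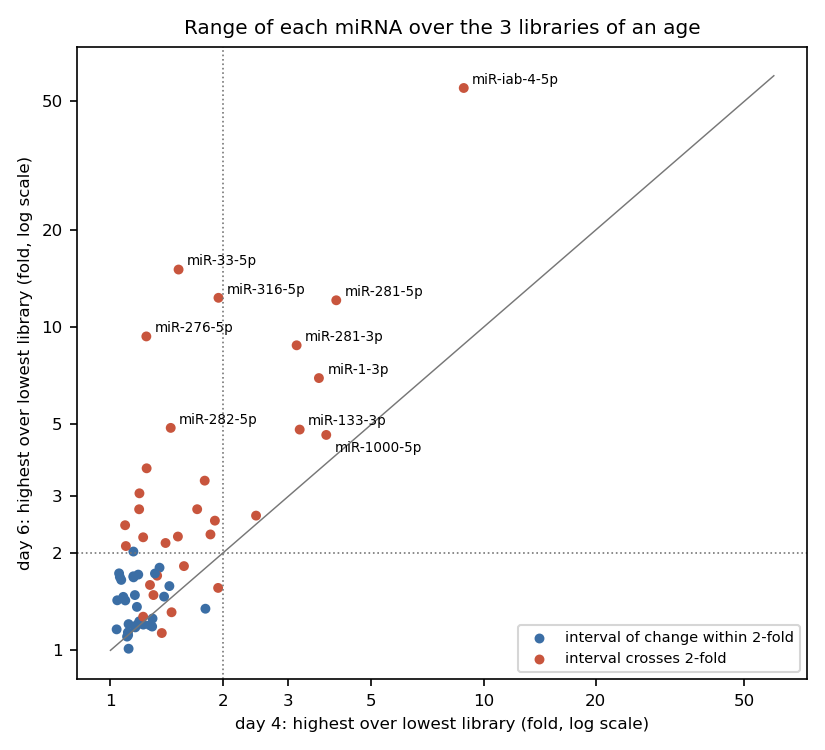
Highest over lowest library within day 6 (y axis) against the same within day 4 (x axis), as folds on log scales, for the 61 miRNAs with at least 10 CPM. Dotted lines mark 2-fold and the diagonal equal ranges, and miR-iab-4-5p, miR-33-5p, miR-316-5p, miR-281-5p and miR-276-5p have the widest day 6 ranges.

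No single library accounted for all of the wide miRNAs. Measured as distance from the day 6 median on the log2 scale, replicate 3 stood farthest for 11 of the 24, replicate 1 for 10 and replicate 2 for 3. Replicates 1 and 2 differed by 2-fold or more for 12 miRNAs, replicates 1 and 3 for 20, and replicates 2 and 3 for 15. Within day 4 the pairs of libraries differed that much for 4 to 6 miRNAs. Refitted without day 6 replicate 3, the count of wide miRNAs was 11, and it was 14 without day 6 replicate 1 and 19 without day 6 replicate 2. These refits take the range over 2 libraries, so a count below 24 is largely built in.

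Day 6 replicate 3 carried the sharpest single departures. miR-33-5p, hosted in flies by the gene of the lipid regulator SREBP, stood at 611, 401 and 475 CPM at day 4. At day 6 it stood at 829.7, 840.1 and 55.2 CPM, from 1238, 513 and 72 counts, a range of 15.1-fold. Day 6 replicates 1 and 2 thus lay above the day 4 range and replicate 3 far below it, and its log2 change was 0.21 (interval -1.84 to 2.26), or 0.74 without replicate 3. miR-276-5p was low in the same library, at 1549, 1508 and 165 CPM at day 6 against 1321, 1108 and 1059 at day 4. The fitted log2 change was -0.12, or 0.38 without that library. Its partner arm miR-276-3p was nearly the same in day 6 replicates 2 and 3. The log2 ratio of the 5p to the 3p arm of miR-276 was -5.97 and -5.75 in day 6 replicates 1 and 2 and -8.94 in replicate 3, beside -6.41, -6.73 and -6.45 at day 4.

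Among the 9 hairpins with both arms measured, this ratio ranged over 3.19 log2 units within day 6 for miR-276, the widest. For miR-9a and miR-190 the range was 1.69 and 1.5, and for the other 6 it was 0.25 (miR-252a) to 0.68 (miR-10). The ratios of miR-9a and miR-190 were highest in day 6 replicate 2, where their 3p arms held only 12 and 15 counts, so counting error is large there. A ratio of arms within a library does not depend on how the library was scaled. Within day 4 the ratio ranged over 0.07 to 0.44 for the 9 hairpins.

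Day 6 replicate 3 stood farthest from the day 6 median, on the high side, for 7 wide miRNAs. They were miR-316-5p, miR-14-3p, miR-965-3p, miR-1175-3p, miR-34-5p, miR-71-3p and miR-995-3p. miR-316-5p stood at 4.02, 14.7 and 55.2 CPM at day 6, from 6, 9 and 72 counts, and at 5.52, 10.9 and 11.2 CPM at day 4. Its log2 change was 1.45 (interval -0.66 to 3.56) with that library and -0.11 without it. miR-34-5p, linked to ageing and neural upkeep in flies, stood at 2069, 1726 and 4211 CPM at day 6, beside a day 4 range of 1694 to 1855. Its log2 change was 0.60 with day 6 replicate 3 and 0.09 without it.

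Day 6 replicate 1 stood farthest on the high side for miR-282-5p, miR-2765-5p, miR-9a-5p and miR-190-3p, where it lay near the day 4 levels. miR-2765-5p, for example, stood at 2332, 1099 and 925 CPM at day 6 and at 2442, 3063 and 1608 at day 4. The fit gave a log2 change of -0.71, or -1.23 without day 6 replicate 1 and -0.465 and -0.493 without replicates 2 and 3. Replicate 1 stood farthest on the low side for miR-281-5p, miR-281-3p, miR-1-3p, miR-1000-5p, miR-92a-3p and miR-315-5p. miR-iab-4-5p, a Hox cluster miRNA that represses Ultrabithorax in flies, had the widest range of all, at 13.4, 111 and 1.53 CPM from 20, 68 and 2 counts. It was already scattered at day 4, at 17.0, 4.21 and 41.1 CPM, and no fold is read from 2 counts. Its fitted log2 change of 0.94 was -1.36 without day 6 replicate 2.

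**Figure D4:**
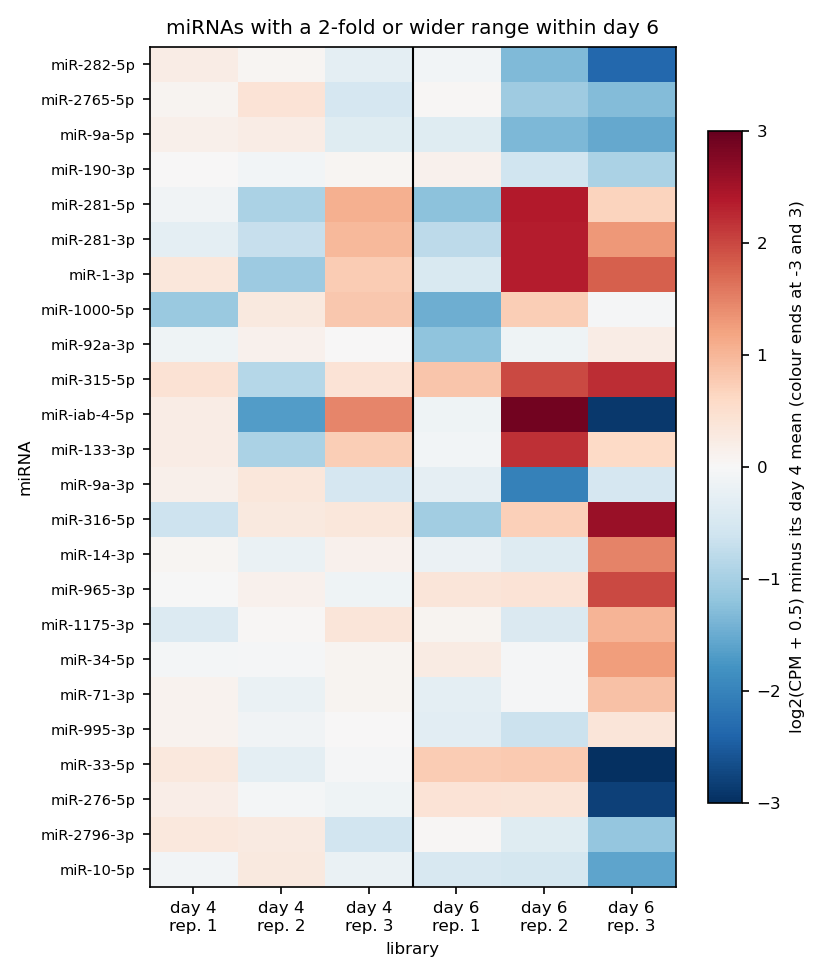
Log2 level of the 24 miRNAs with a range of 2-fold or more within day 6, in each library (columns), as the difference from the miRNA's day 4 mean. The colour ends at -3 and 3, and day 6 replicate 3 shows the low values of miR-33-5p and miR-276-5p while day 6 replicate 2 shows the high values of miR-1-3p, miR-133-3p and both arms of miR-281.

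The measured marker miRNAs of muscle and midgut were themselves among the wide miRNAs. Within day 4, miR-1-3p, miR-133-3p, miR-281-3p and miR-281-5p already had ranges of 3.62-, 3.22-, 3.16- and 4.03-fold, and miR-1175-3p had 1.71-fold. In the muscle list, miR-1 and miR-133 were measured, and the table held no arthropod row of miR-206. miR-1-3p stood at 105, 38.7 and 141 CPM at day 4 and at 61.0, 427 and 288 at day 6. The libraries overlapped, with a log2 change of 1.43 (SE 0.78, interval -0.44 to 3.31, edgeR adjusted p = 0.426). Summed over miR-1-3p and miR-133-3p, the level was 68.1 to 237 CPM at day 4 and 115 to 691 CPM at day 6, highest in day 6 replicate 2. The median log2 change of the muscle list was 1.25, and it was 0.54 without day 6 replicate 2, when miR-1-3p and miR-133-3p stood at 0.89 and 0.18.

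The midgut list, miR-281 and miR-1175, had 3 of 3 measured members wide within day 6 and 0 level. miR-281-3p, abundant in the midgut of mosquitoes, stood at 59.8, 45.4 and 144 CPM at day 4 and at 42.2, 375 and 181 at day 6, with a log2 change of 1.25 (interval -0.73 to 3.23) that was 0.45 without day 6 replicate 2. miR-281-5p stood at 22.1, 273 and 82.9 CPM at day 6, and its log2 change was 1.01 with all libraries and -0.21 without day 6 replicate 2. Summed, the midgut list stood at 129 to 326 CPM at day 4 and at 123 to 689.5 CPM at day 6, and its median log2 change was 1.01, or 0.45 without day 6 replicate 2. Summed over either list, day 6 replicate 1 was the low and day 6 replicate 2 the high library of that age, while miR-1175-3p alone was highest in replicate 3. The part of other tissues in the spread was not tested, and in such bulk samples fewer cells of a type and less RNA per cell cannot be told apart.

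Of the nervous system list, miR-7-5p was level, at 572 ± 99.4 CPM at day 4 and 553 ± 192 at day 6 (log2 change -0.05, which is also the list's median). miR-7 is not restricted to neurons. The defining neural miRNA miR-124 had 0 counts in day 4 replicates 1 and 2 and day 6 replicate 1, 9 in day 4 replicate 3, and 13 and 1 in day 6 replicates 2 and 3. miR-137 reached at most 3 counts. The 5 markers of ovary and early embryo, miR-989, miR-309, miR-286, miR-3 and miR-318, had 0 counts in the 6 libraries under their arthropod names. Whether the locust has them in a form that these names would count was not checked, so nothing is read from the 0. No miRNA used here marks the fat body alone, so the tissue label could be checked only against these markers of other tissues.

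**Figure D5:**
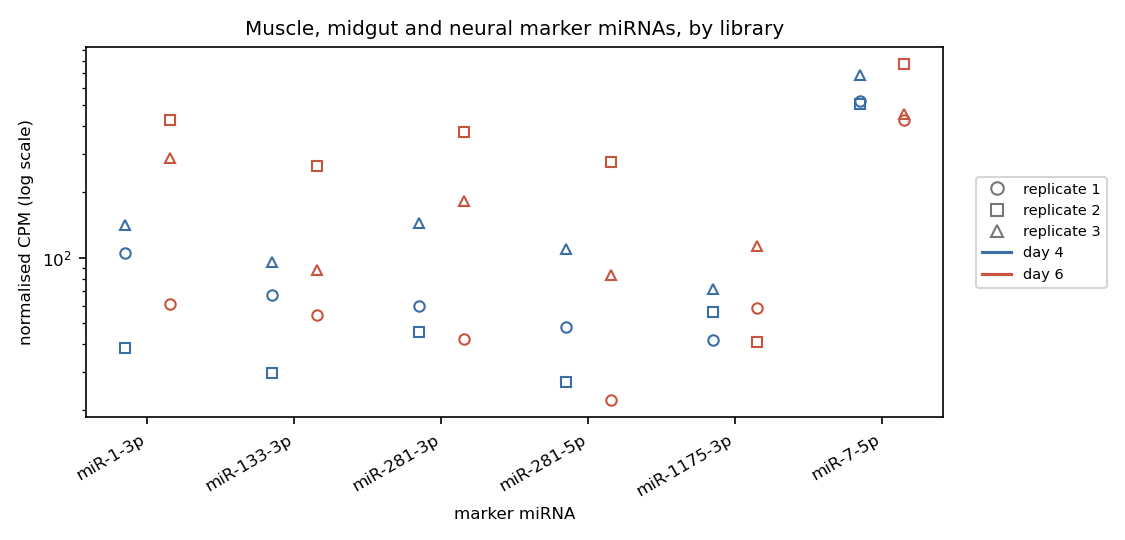
Normalised CPM (log scale) of the measured marker miRNAs of muscle (miR-1-3p, miR-133-3p), midgut (both arms of miR-281, miR-1175-3p) and the nervous system (miR-7-5p) in each library. Day 6 replicate 2, the square, is the highest library for miR-1-3p, miR-133-3p and both arms of miR-281, while miR-7-5p lies between 429.6 and 775 CPM.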

How the data were processed

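The authors deposited 1 table of unnormalised read counts, with a row for each mature miRNA name. TRIzol extraction and a standard Illumina library protocol are given in the labels' protocols. The labels state no aligner, mismatch limit, miRNA release or genome, and none is given in the sources used here. The table holds 26711 names, 4045 of them under 32 arthropod species codes and 14 of the locust, and 0 columns of other samples. Columns were matched to samples through their descriptions.

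Reads were counted again under each matching species name, as far as the repeated rows show. The 910 arthropod rows that reached 90 counts over the 9 libraries of days 2, 4 and 6 were joined. Agreement in every library had to be within 25% plus 5 counts for rows sharing a miRNA number, and within 5% plus 3 counts for others (96 profiles). Profiles of the same number, letter and arm at a constant share of a larger one were joined next where the share held to a factor of 1.5 or to 2.5 SDs of counting error in all but 1 library, which left 63 miRNAs. Names come from a locust row or, failing that, another arthropod, and each miRNA is counted by its most abundant row. Of the 910 rows, 626 repeated another row of their miRNA exactly in the 6 libraries. The design assumed these joins, and their tolerances were set with the table known.

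Counts of the 6 libraries of days 4 and 6 were scaled by TMM, filtered by filterByExpr at a minimum count of 10 and tested by glmQLFit and glmQLFTest in edgeR 4.0.16 under R 4.3.3, with Benjamini-Hochberg adjustment. The SE is the log2 change over the square root of F, and 95% intervals use its t quantile for each miRNA alone. Ranges add 0.5 CPM. The script was tested on simulated data. Alternatives were DESeq2 1.42.0, limma-voom (limma 3.58.1), RLE factors, scaling by total counts, no filter, a replicate block, days 2, 4 and 6 in 1 fit, each library left out, leaving out miR-8-3p, other joins, and other limits. Joining used Python 3.11.15, pandas 2.3.3 and NumPy 2.4.6, and figures matplotlib 3.10.9.

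Named by rule were called miRNAs, the 10 most abundant, the 5 highest and 5 lowest log2 changes and the 5 widest day 6 ranges at 10 CPM or more, the 5 narrowest level intervals, and each list's lowest p. Others were chosen after their values were seen. The libraries, miRNAs and lists were chosen with earlier results of these data known.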

Additional observations from a re-analysis of the deposited data

How the results depend on the processing

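The counts of 0 higher and 0 lower miRNAs were the same under each alternative run except the replicate block, which called 1 miRNA higher, miR-8-3p (log2 change 0.34, edgeR adjusted p = 0.0457). Whether the replicate numbers pair the libraries is not known. Deviations of same-numbered libraries from their age means correlated at 0.36, -0.737 and -0.0337 across miRNAs, and each of the 3 day 6 libraries correlated best with another number. Such correlations cannot decide the pairing, since deviations from a mean of 3 libraries depend on one another. With each library left out in turn, 0 were higher and 0 lower in every fit, 21 to 34 were level and 11 to 24 were wide within day 6. Where a day 6 library was left out, the range was taken over 2 libraries, which lowers the wide count. Of the 30 level miRNAs, 21 were level in each of these 6 fits. Among the others, miR-184b, miR-995-3p and miR-7-5p were level in 1, 1 and 2 of them. Without joining, 410 of 897 arthropod rows were level and 224 wide, since reads are then counted under many names. A limit of 1.5-fold left 12 level miRNAs, and limits of 1.5-fold and 3-fold gave 37 and 13 wide ones. The level count was 23 to 45 and the wide count 22 to 33 under the other alternatives, on 60 to 95 miRNAs. In low counts, such as those of miR-iab-4-5p, miR-316-5p and miR-282-5p, counting error limits every value.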
